A study of Homo sapiens with 9 samples.

Results

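Untreated T84 cells were compared with untreated Caco-2 cells, both of which are established epithelial lines from human colon carcinomas, to describe how the lines differ at baseline in transcripts that build, carry or read glycans. The arrays were chosen by their titles. They are 6 of the 9 samples of the series: 3 of untreated T84 at passage 68 and 3 of untreated Caco-2 at passage 37, each from 6-well plates at about 90% confluence. The remaining 3 arrays, of T84 cells given interferon gamma, were left out of every fit. No transgene, knockout or treatment is stated for either group. Per the series' design text, the study looked for glycosylation genes behind GM35, a sialylated CD44 variant epitope that interferon gamma raises in T84 and that Caco-2 cells lack. Each line differs from the other in donor, passage and culture history, so a difference belongs to this pair of cultures and cannot be told apart from those factors. The labels number the replicates without saying that they are separate cultures, so each p-value reflects the scatter among these arrays alone, part of which may be technical.

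Glycans on epithelial proteins are built stepwise in the secretory pathway, and the set of enzymes a cell transcribes limits which structures it can make. Mucin-type O-glycans start with GalNAc on serine or threonine, are extended to core structures and are capped with sialic acid or fucose. N-glycans are assembled on a lipid, transferred to protein and then trimmed and branched, whereas heparan and chondroitin sulfate chains are built on proteoglycan cores. Lectins such as galectins read these structures. T84 is used as a model of chloride-secreting colonic crypt cells, and Caco-2 is known for differentiating towards a small-intestinal enterocyte type when kept long after confluence.

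Each array gave a log2 RMA signal (a background-corrected, between-array normalized value on a log2 scale) for 1259 probe sets, of which 1043 could be given 1 gene symbol and stood for 927 genes. Values of single arrays are listed below in the order of replicates 1, 2 and 3. A log2 fold change is T84 minus Caco-2 with its standard error, and a gene is called where limma's moderated test gave a Benjamini-Hochberg adjusted p below 0.05 over all probe sets (n = 3 per group). The table held no detection calls, so a low signal could not be told from absence. Array medians ran from 6.70 to 6.80. Correlations across probe sets (not independent of each other) were 0.994 to 0.998 within T84, 0.987 to 0.999 within Caco-2 and 0.919 to 0.931 between the lines. The median within-group SD was 0.0709 in T84 and 0.104 in Caco-2. The number of arrays limits the precision.

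One array of each line stood apart. Caco-2 replicate 1 was more than 1 log2 unit below the mean of the other 2 Caco-2 arrays at 46 probe sets and above it at 1. At 44 of those 46, T84 replicate 3 was also below the mean of the other T84 arrays, at 32 of them by more than 0.5. The stem cell factor gene KITLG gave signals of 9.80, 9.30 and 7.74 in T84 and 6.24, 9.34 and 8.93 in Caco-2, and the BMP receptor gene BMPR2 signals of 8.28, 8.15 and 6.33 in T84 and 5.35, 8.17 and 7.80 in Caco-2. Both genes, chosen after their values were seen, were therefore low on 1 array of each line, and the groups overlapped. Leaving out these 2 arrays, a check chosen after seeing the data, raised the number of called probe sets among the 46 from 10 to 33. The 46 were picked by their deviation on 1 of these arrays, so a rise follows from the selection and nothing is concluded from it. The part of array quality in these values was not tested. Without the 2 arrays that stood apart KITLG was at 0.42 (adjusted p = 0.225) and BMPR2 at 0.23 (adjusted p = 0.287). Such values, which rest on 2 arrays of each line, are given below for some of the O-glycan genes that were low on both arrays that stood apart.

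**Figure D1:**
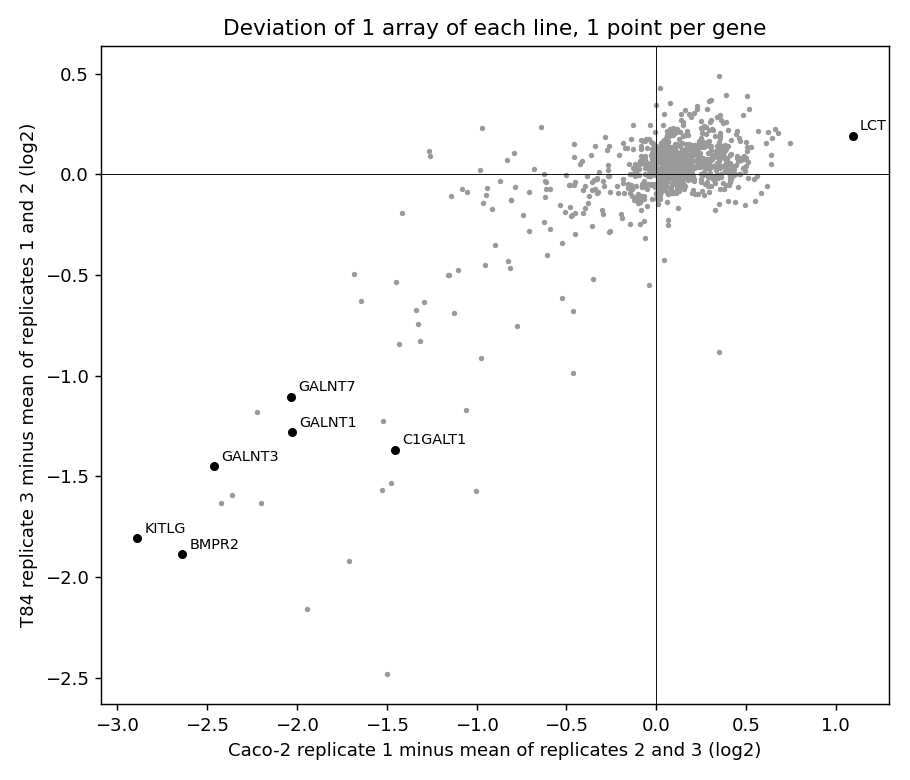
Deviation of Caco-2 replicate 1 from its 2 fellow arrays (horizontal axis, log2 units) against the deviation of T84 replicate 3 from its own 2 fellow arrays (vertical axis, log2 units), with 1 point per gene. Most genes sit near 0 on both axes, while a tail that includes KITLG, BMPR2, GALNT1, GALNT3 and GALNT7 is low on both arrays.

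The lines differed widely. Of 1259 probe sets, 209 (16.6%) were higher and 276 (21.9%) lower in T84, and the 3 values of each line did not overlap at 624 (49.6%). With 1 probe set per gene, 162 of 927 genes (17.5%) were higher and 216 (23.3%) lower, and every list count below is to be read against these 2 shares. The groups of 480 genes (51.8%) did not overlap. Calls of at least 2-fold numbered 87 (6.91%) higher and 105 (8.34%) lower among probe sets, and 70 (7.55%) and 85 (9.17%) among genes. At 8-fold or more, 13 (1.03%) probe sets were higher and 17 (1.35%) lower. Differences of at least 8-fold were seen for 10 genes (1.08%) higher and 15 (1.62%) lower in T84. In each of the 6 fits that left out 1 array, 123 of the 162 higher and 172 of the 216 lower calls remained. The balance between directions depended on the scaling. With each array centred on the mean of its 51 ribosomal protein probe sets, the median over all log2 fold changes went from 0.02 to 0.31, and 814 probe sets were higher and 181 lower. Small differences, below about 0.3 log2 units, can therefore change sign with the scaling. Some larger negative differences lost their call: MUC17, the 1 mucin gene called lower, was not called lower under ribosomal centring. Counts under ribosomal centring are given beside most of the lists.

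**Figure D2:**
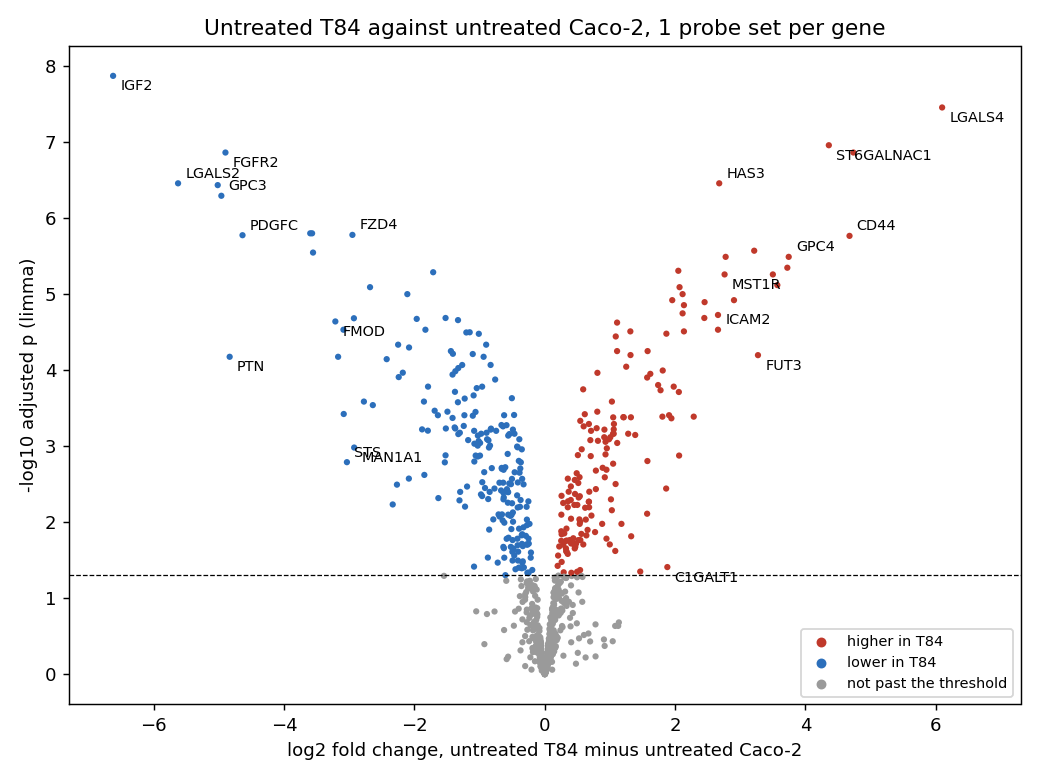
Log2 fold change of T84 over Caco-2 (horizontal axis) against the -log10 adjusted p of limma (vertical axis) for 927 genes, with the dashed line at an adjusted p of 0.05. LGALS4 lies farthest to the right and IGF2 farthest to the left, and C1GALT1 lies just above the line despite a log2 fold change of 1.88.

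Galectins, which bind beta-galactosides, held the largest difference in favour of T84 among the 927 genes. LGALS4, the galectin typical of the gut epithelium, gave log2 signals of 12.99, 13.04 and 12.98 in T84 and 6.95, 6.96 and 6.82 in Caco-2, and the arrays of the lines were far apart, a log2 fold change of 6.10 ± 0.06 (adjusted p = 3.51e-08). LGALS2, another galectin of the digestive tract, ran the opposite way, at 5.23, 5.11 and 5.22 in T84 and 10.98, 10.83 and 10.64 in Caco-2 (-5.63 ± 0.10). Caco-2 thus had the high signal for LGALS2 and T84 for LGALS4, with no overlap in either. In these bulk samples, a larger share of expressing cells and more RNA per cell cannot be told apart, here and below. LGALS9, a galectin with tandem binding domains, was 4.14-fold (95% confidence interval 3.69 to 4.64) higher in T84, and LGALS3, known to bind laminin and mucins, 1.53-fold (1.39 to 1.68) higher. LGALS3BP, a secreted glycoprotein ligand of galectin-3, was 9.28-fold (7.96 to 10.8) higher. LGALS14 and LGALS13, known from placenta, were lower at -2.11 ± 0.08 and -0.90 ± 0.05. LGALS1, at -0.60 ± 0.19, was called lower, but not without T84 replicates 1, 2 or 3 or Caco-2 replicate 3 (adjusted p 0.0697 to 0.143). Of the 13 measured list members 4 were higher and 4 lower (7 and 3 under ribosomal centring), against 17.5 and 23.3% of all genes. LGALS8 (0.17 ± 0.12), LGALS12 (0.05 ± 0.07), LGALS7 (-0.14 ± 0.08), LGALSL (-0.18 ± 0.08) and CLC (-0.12 ± 0.06) did not pass.

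**Figure D3:**
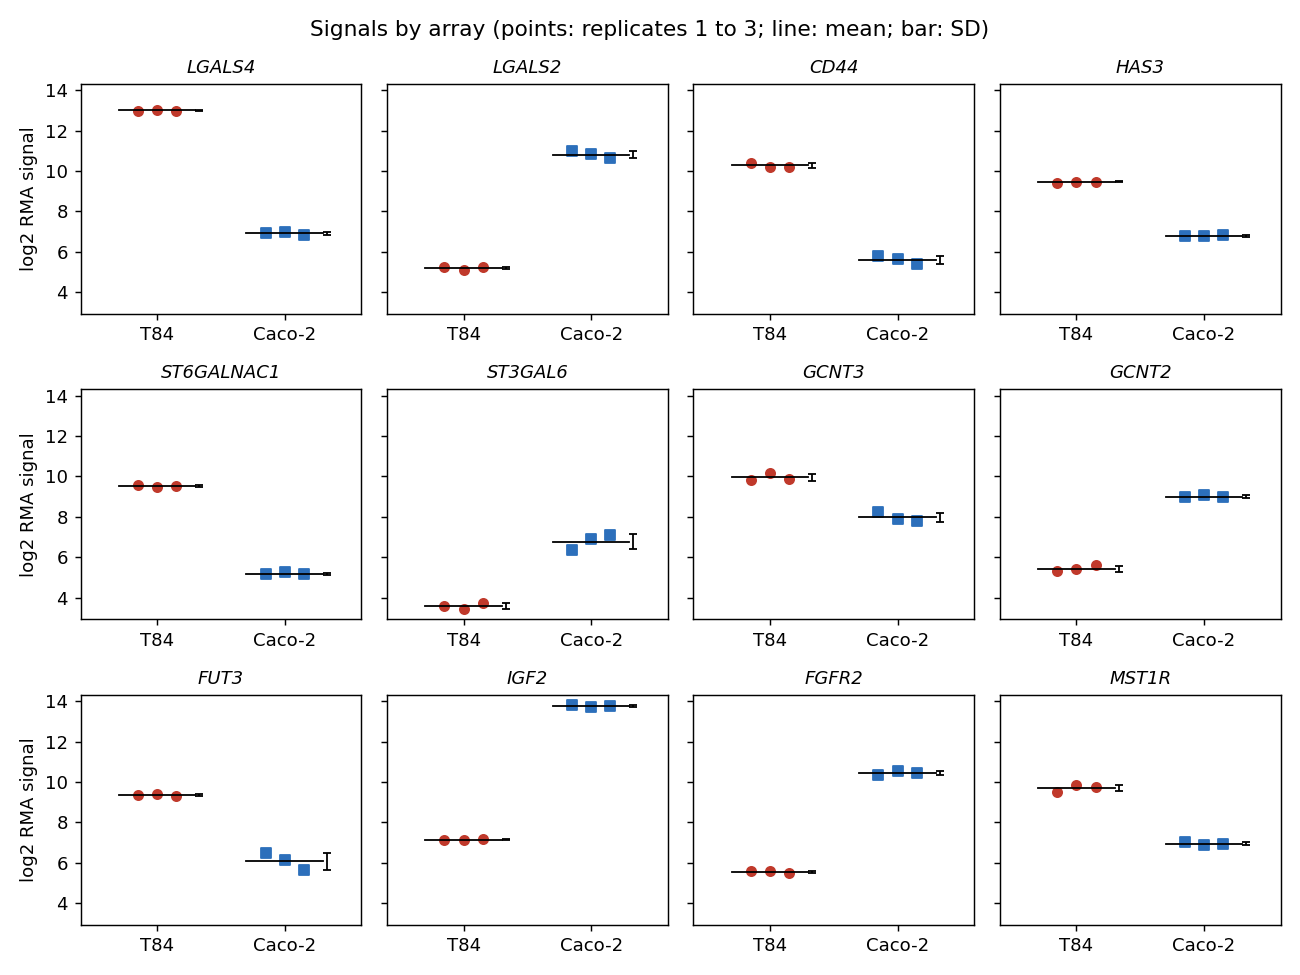
Log2 RMA signals of 12 genes on the 3 T84 arrays (circles) and the 3 Caco-2 arrays (squares), with the mean as a line and the SD as a bar. The 12 were picked from the largest called differences without overlap, so their lack of overlap follows from the selection. Among all 927 genes, 51.8% do not overlap. FUT3 and ST3GAL6 spread more widely within Caco-2 than within T84.

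CD44, the hyaluronan receptor whose variant carries the epitope, gave 10.41, 10.21 and 10.21 in T84 and 5.78, 5.65 and 5.38 in Caco-2, a log2 fold change of 4.68 ± 0.12 (adjusted p = 1.71e-06). All T84 arrays were above all Caco-2 arrays, and its probe set cannot separate the splice variants. HAS3, which makes hyaluronan at the plasma membrane, was 6.39-fold (95% confidence interval 5.92 to 6.91) higher in T84, with signals of 9.43, 9.47 and 9.47 in T84 and 6.75, 6.76 and 6.82 in Caco-2. Its other probe set, shared among transcripts, was at 0.40 ± 0.27, not past the threshold, so the call rests on 1 of 2 probe sets. HAS2, a synthase of the same family, leaned the other way (-1.09 ± 0.32), a call lost without T84 replicates 1, 2 or 3 or Caco-2 replicates 2 or 3 (adjusted p 0.104 to 0.125). HAS1 was at 0.03 ± 0.05. The hyaluronidase gene HYAL1 and the hyaluronan receptor gene LAYN (layilin) were lower in T84 at -1.37 ± 0.14 and -1.79 ± 0.14, while HYAL2 (0.00 ± 0.09) and HYAL3 (-0.06 ± 0.15) did not pass. Of the 9 measured genes of hyaluronan and its receptors 2 were higher and 4 lower, 4 and 2 under ribosomal centring. With 1 array left out the list had 2 lower without T84 replicates 1 or 2 or Caco-2 replicate 2. ICAM1, counted there as a reported receptor, was at -0.62 ± 0.17, and its call was lost without T84 replicates 1 or 2 or Caco-2 replicate 2 (adjusted p 0.0768 to 0.105).

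The start of O-glycans is set by the GALNT family, which transfers GalNAc to protein. Of 18 measured members 5 were higher and 3 lower in T84. GALNT4, which prefers peptides that already carry GalNAc, gave 7.91, 7.97 and 7.48 in T84 and 5.18, 5.94 and 6.05 in Caco-2 and was 4.17-fold (95% confidence interval 2.68 to 6.51) higher. Its lowest values in each line were on T84 replicate 3 and Caco-2 replicate 1, the arrays that stood apart. GALNT12, a colon-expressed member, was 2.07-fold (1.70 to 2.51) higher, GALNT5 2.04-fold (1.47 to 2.83) and GALNT18 1.55-fold (1.25 to 1.92). GALNT11, an enzyme linked to Notch receptors, was lower at -1.71 ± 0.06 and the broadly expressed GALNT2 at -0.67 ± 0.11. GALNT1, GALNT3 and GALNT7 were also low on both of those arrays, and none of these 3 passed with all 6 arrays. GALNT3 gave 9.95, 9.71 and 8.38 in T84 and 6.66, 9.25 and 8.996 in Caco-2, which put it at 1.04 ± 0.79 with an adjusted p of 0.367, above the threshold. Without T84 replicate 3 and Caco-2 replicate 1 it was 0.70 (adjusted p = 0.0145), GALNT1 0.66 (adjusted p = 0.00675) and GALNT7 0.82 (adjusted p = 0.0014), so that 8 of 18 were then higher and 3 lower. Ribosomal centring with all arrays gave 12 and 2. These 3 genes were singled out after their values were seen, so nothing is concluded from their lower adjusted p without the 2 arrays. GALNT14 (-0.02 ± 0.05), GALNT17 (0.04 ± 0.05), GALNT9 (0.06 ± 0.06) and GALNT15 (0.11 ± 0.07) did not pass.

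The next step divides between core structures. GCNT3, the mucin-type enzyme that makes core 2, core 4 and I branches, gave 9.82, 10.17 and 9.86 in T84 and 8.24, 7.89 and 7.79 in Caco-2 and was 3.94-fold (95% confidence interval 3.05 to 5.09) higher in T84. GCNT2, the I-branching enzyme that works on lactosamine chains, gave 5.30, 5.40 and 5.60 in T84 and 8.98, 9.07 and 8.96 in Caco-2 and was 11.9-fold (10.3 to 13.8) lower. The 2 branching genes therefore differed in opposite directions with no overlap. C1GALT1C1 (COSMC), the chaperone that the core 1 synthase needs, was 1.93-fold (1.59 to 2.35) higher, and B3GNT3, which extends core 1, 1.88-fold (1.58 to 2.24). C1GALT1, the core 1 synthase itself, gave 7.93, 7.76 and 6.48 in T84 and 4.54, 6.02 and 5.96 in Caco-2. It was low on T84 replicate 3 and on Caco-2 replicate 1, and its call at 1.88 ± 0.55 (adjusted p = 0.0389) was lost without T84 replicates 1 or 2 or Caco-2 replicates 1, 2 or 3 (adjusted p 0.059 to 0.132). Without both deviating arrays it was 1.85 (adjusted p = 0.000298). GCNT1, a core 2 enzyme of many tissues, was at -0.93 ± 0.76 and did not pass with all arrays, and at -1.12 (adjusted p = 0.00723) without those 2. Leaving out those 2 arrays was a check chosen after seeing the data. It takes out scatter at both genes, so nothing is concluded from the lower adjusted p. B3GNT6, the core 3 synthase of normal colon, was at 0.02 ± 0.06 and A4GNT at 0.04 ± 0.05. Of the 8 measured genes 4 were higher and 1 lower, with a median of 0.47 beside 0.01 for all genes, and 6 and 1 under ribosomal centring. Without shared or cross-hybridising types of probe set 4 were higher and 0 lower, so the GCNT2 call rests on such a probe set.

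Sialic acid caps were the subject of the series. ST6GALNAC1, which places sialic acid on the first GalNAc and makes the sialyl-Tn antigen, gave 9.59, 9.49 and 9.54 in T84 and 5.15, 5.24 and 5.15 in Caco-2 and was 20.5-fold (95% confidence interval 18.8 to 22.4) higher in T84 (adjusted p = 1.1e-07). ST6GALNAC2, a relative that prefers core 1, was 2.47-fold (1.95 to 3.13) lower, with signals of 6.43, 6.72 and 6.55 in T84 and 8.15, 7.76 and 7.71 in Caco-2. Members of a single subfamily thus lay on both sides, and neither overlapped. ST6GALNAC3 and ST6GALNAC6, which act on gangliosides and other sialylated acceptors, were lower at -3.09 ± 0.28 and -1.52 ± 0.19, ST6GALNAC4 at -0.56 ± 0.09, while ST6GALNAC5 was higher at 0.68 ± 0.07.

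Among alpha-2,3 sialyltransferases, ST3GAL6, which acts on lactosamine ends, gave 3.58, 3.45 and 3.75 in T84 and 6.34, 6.89 and 7.08 in Caco-2 and was 9.01-fold (6.42 to 12.6) lower in T84, and ST3GAL1, the enzyme of core 1, 2.52-fold (2.08 to 3.06) lower. ST3GAL4 was higher at 0.68 ± 0.12. ST3GAL5, the GM3 synthase, was at 0.20 ± 0.09 (95% confidence interval -0.03 to 0.43), ST3GAL2 at -0.16 ± 0.09 and ST3GAL3 at -0.16 ± 0.07, none past the threshold with all arrays. ST3GAL2 passed without Caco-2 replicate 3 (adjusted p 0.0319). ST6GAL1, the main alpha-2,6 enzyme of N-glycans, was higher at 0.44 ± 0.11, a call lost without T84 replicates 1, 2 or 3 or Caco-2 replicate 2 (adjusted p 0.0582 to 0.0718). The 6 alpha-2,8 sialyltransferase genes ST8SIA1 to ST8SIA6 lay between -0.02 and 0.07, and ST6GAL2 was at 0.11 ± 0.05. ST6GAL2 did not pass with all 6 arrays but did so without Caco-2 replicate 1 (adjusted p 0.0443). In all, 4 of 20 were higher and 6 lower (median 0.00). With arrays centred on ribosomal genes, the counts were 12 and 6. With shared or cross-hybridising types of probe set left out, they were 4 and 2, among fewer measured genes. In each of the 6 fits without 1 array, 3 of the higher and all 6 of the lower calls remained. Leaving out dim probe sets, with means in both lines no higher than the 25th percentile of all signals, gave 3 higher and 6 lower.

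Supply of the donor CMP-sialic acid differed at several steps. GNE, which starts the pathway from UDP-GlcNAc, gave 9.70, 9.60 and 9.78 in T84 and 7.47, 7.76 and 7.51 in Caco-2 and was 4.33-fold (95% confidence interval 3.69 to 5.09) higher in T84. CMAS, which activates sialic acid in the nucleus, was 1.84-fold (1.35 to 2.51) higher. SLC35A1, the Golgi carrier of the activated sugar, was higher at 0.997 ± 0.24, but not without T84 replicates 1, 2 or 3 (adjusted p 0.0646 to 0.0705). On the side of removal, the lysosomal exporter gene SLC17A5, the sialidase gene NEU1 and the sialic acid lyase gene NPL were lower at -0.71 ± 0.14, -1.06 ± 0.13 and -1.11 ± 0.07. NANS (-0.13 ± 0.10), which condenses the sugar, and the sialidase genes NEU2 (-0.03 ± 0.05), NEU3 (-0.01 ± 0.05) and NEU4 (-0.07 ± 0.05) did not pass. RENBP (0.14 ± 0.10) and CTSA (0.08 ± 0.09) did not pass either. Of 12 measured genes 3 were higher and 3 lower, and 8 and 3 under ribosomal centring.

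Fucosylation genes came next. FUT3, which completes Lewis antigens, gave 9.35, 9.40 and 9.28 in T84 and 6.46, 6.12 and 5.64 in Caco-2 and was 9.66-fold (95% confidence interval 6.84 to 13.6) higher. FUT2, the secretor enzyme of mucosal H antigen, was 2.02-fold (1.50 to 2.73) higher, and GMDS, an enzyme on the path to GDP-fucose, 2.07-fold (1.75 to 2.45). FUT6, a Lewis-type enzyme whose probe set may cross-hybridise, was at 0.38 ± 0.09, lost without T84 replicates 2 or 3 or Caco-2 replicates 2 or 3 (adjusted p 0.0609 to 0.0656). FUT4, a fucosyltransferase of Lewis x, was lower at -0.83 ± 0.09, and POFUT2, which fucosylates thrombospondin repeats, at -0.65 ± 0.13. FUT1, the H enzyme of red cells, was at 0.52 ± 0.19, and it did not pass with all 6 arrays but did so without Caco-2 replicate 1 (adjusted p 0.0127). FUT5 (0.06 ± 0.05), FUT7 (-0.02 ± 0.06) and FUT9 (0.08 ± 0.06) did not pass. Of 15 genes 5 were higher and 3 lower, and 10 and 2 under ribosomal centring. The list had 3 higher without T84 replicates 2 or 3 or Caco-2 replicates 2 or 3. Without Caco-2 replicate 1 the counts were 7 and 3. In the list of blood group and other terminal antigens, B3GALT5, which makes the type 1 chain that Lewis a and CA19-9 use, was 1.72-fold (1.43 to 2.08) higher, the Forssman-type gene GBGT1 was lower at -0.66 ± 0.09, and ABO (0.21 ± 0.08) did not pass with all 6 arrays but did so without Caco-2 replicate 1 (adjusted p 0.00855). Of the 9 genes of this list 3 were higher and 1 lower, 8 and 1 under ribosomal centring. The counts moved to 5 higher without Caco-2 replicate 1. A4GALT was at -0.07 ± 0.06 and B4GALNT2 at 0.09 ± 0.06.

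**Figure D4:**
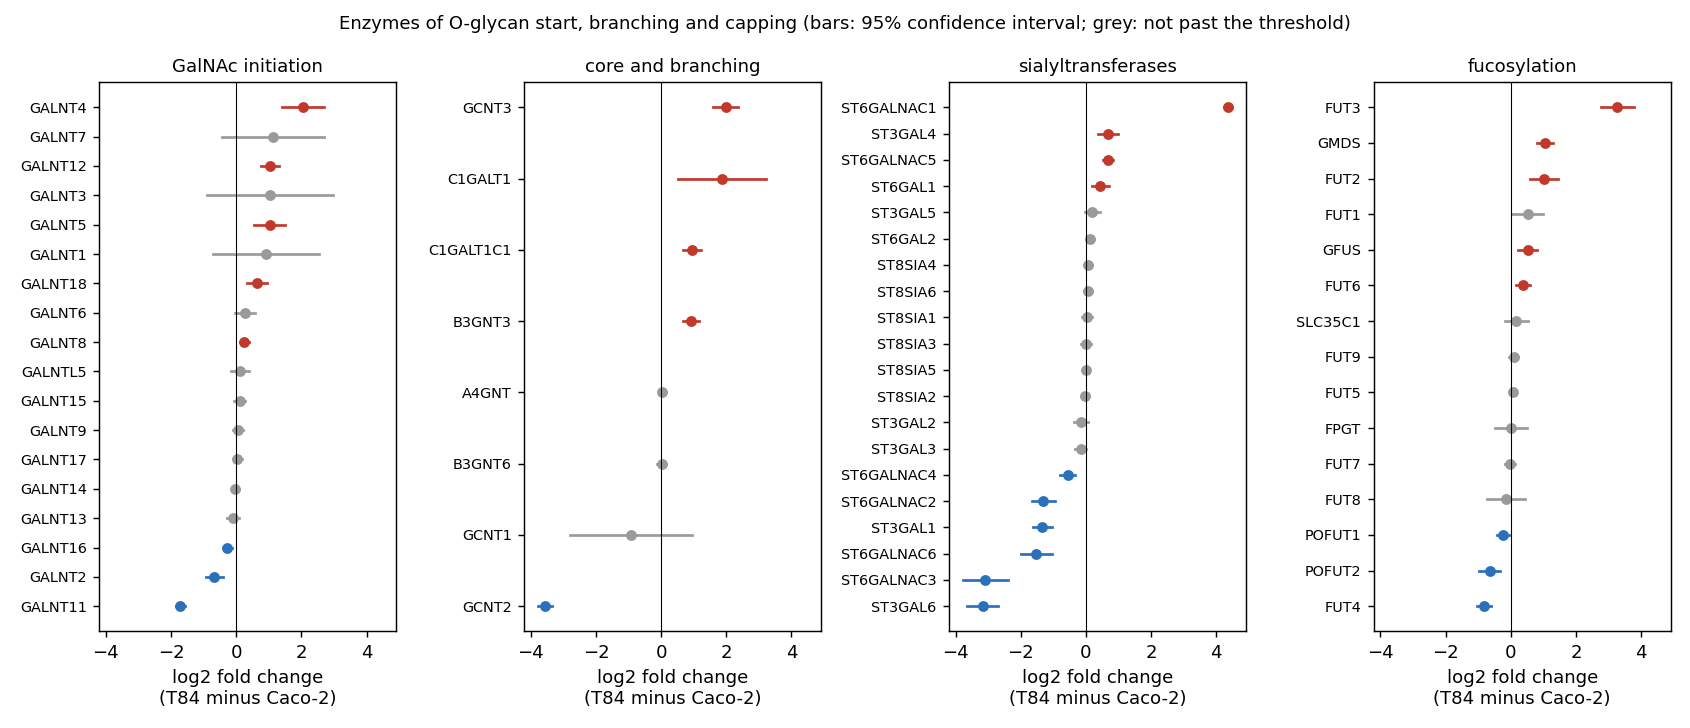
Log2 fold changes of T84 over Caco-2 with 95% confidence intervals (limma) for measured genes of GalNAc initiation, core synthesis and branching, sialylation and fucosylation; red points are higher and blue points lower in T84 past the threshold, and grey points did not pass. ST6GALNAC1, FUT3, GCNT3 and GALNT4 lie to the right, GCNT2, ST3GAL6 and ST6GALNAC3 to the left, and the wide grey intervals belong to GALNT1, GALNT3, GALNT7 and GCNT1.

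Of the mucins that carry O-glycans, the membrane-bound MUC13 gave 12.02, 11.90 and 12.04 in T84 and 9.99, 9.98 and 9.78 in Caco-2 and was 4.19-fold (95% confidence interval 3.68 to 4.78) higher in T84, MUC20 3.49-fold (2.62 to 4.67) and MUC1 2.16-fold (1.97 to 2.36). MUC2, the gel-forming mucin of goblet cells, was higher at 0.40 ± 0.07, and MUC17, a mucin of the enterocyte brush border, lower at -0.49 ± 0.10. MUC16 was at 0.33 ± 0.08, a call lost without T84 replicates 1, 2 or 3 or Caco-2 replicates 2 or 3 (adjusted p 0.0555 to 0.0853). MUC4 was at 0.18 ± 0.08, and it did not pass with all 6 arrays but did so without T84 replicate 2 (adjusted p 0.0383). MUC5B (0.02 ± 0.05) and MUC6 (0.09 ± 0.06) did not pass. Of 14 genes 5 were higher and 1 lower, and 12 and 0 under ribosomal centring. Among mucins, leaving out 1 array gave 2 lower without Caco-2 replicate 1.

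Genes of the interferon response were compared without any interferon. Of 15 measured members 8 were higher and 4 lower in T84, beside 17.5 and 23.3% of all genes, with a list median of 0.54. The list was written with earlier results of these data known. Interferon-responsive promoters often hold pairs of GAAA repeats. Stretches around such pairs are shown for 4 genes higher in T84 (IFITM1, CXCL10, LGALS9 and the galectin ligand LGALS3BP) and, for contrast, for CXCL9, whose arrays overlapped between the lines. Each is printed 5′ to 3′ on the gene's strand from RefSeq promoters (GRCh38.p14), with matches to GAAANNGAAA on either strand in capitals.
IFITM1: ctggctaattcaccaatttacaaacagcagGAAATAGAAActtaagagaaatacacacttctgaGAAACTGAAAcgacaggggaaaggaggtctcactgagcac
CXCL10: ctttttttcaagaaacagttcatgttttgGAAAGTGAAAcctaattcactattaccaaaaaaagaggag
LGALS9: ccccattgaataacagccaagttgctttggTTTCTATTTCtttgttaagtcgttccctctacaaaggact
LGALS3BP: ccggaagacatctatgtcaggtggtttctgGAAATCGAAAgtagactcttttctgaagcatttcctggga
CXCL9: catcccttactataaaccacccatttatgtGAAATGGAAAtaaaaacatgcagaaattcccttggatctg
These lie at chr11:313970-314073 (plus strand), chr4:76023679-76023747 (minus strand), chr17:27631149-27631218 (plus strand), chr17:78979942-78980011 (minus strand) and chr4:76007641-76007710 (minus strand), within the window from 250 bases before to 50 after each annotated start. The motif occurred in 3.57% of the 35116 promoters of the table and in 6 of the 10 measured list members that had an entry. It was found for 4 of 5 that were higher in T84 (IFITM1, CXCL10, LGALS9 and TNFSF13B, but not CXCL11). Of 5 that were not higher, 2 had it (CXCL9 and VCAM1). LGALS3BP is not among these 10. A match is a description of letters, not a site of binding.

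IFITM1, an interferon-induced antiviral membrane protein gene with 2 matches, gave 14.17, 14.12 and 14.21 in T84 and 10.71, 10.34 and 10.28 in Caco-2 and was 13.2-fold (95% confidence interval 10.8 to 16.2) higher in T84. CXCL10, a ligand of the receptor CXCR3 with 1 match, gave 7.93, 7.59 and 7.93 in T84 and 5.40, 5.33 and 5.35 in Caco-2 (2.45 ± 0.10). CXCL9, a ligand of the same receptor that also has 1 match, gave 5.91, 5.66 and 5.80 in T84 and 5.73, 5.71 and 5.77 in Caco-2 (0.06 ± 0.07; 95% confidence interval -0.12 to 0.23). The motif was thus present both where the lines were apart and where they overlapped. LAMP3, a lysosomal membrane glycoprotein gene, was 11.3-fold (9.23 to 13.9) higher in T84. TNFSF13B, encoding BAFF, was at 0.54 ± 0.16, a call lost without T84 replicates 1 or 2 or Caco-2 replicates 1, 2 or 3 (adjusted p 0.0582 to 0.135). CCL2, a monocyte chemokine gene, was lower at -1.01 ± 0.05. The adhesion gene VCAM1 (0.00 ± 0.04) and the chemokine gene CCL8 (0.02 ± 0.04) did not pass. Ribosomal centring gave 11 and 2 higher and lower for the list. Leaving out 1 array gave 2 lower without T84 replicates 1 or 2 or Caco-2 replicate 2.

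Chemokine genes as a whole leaned to T84, with 14 of 38 higher and 4 lower (median 0.09). CCL5, which draws T cells, gave 8.62, 8.39 and 8.65 in T84 and 5.72, 5.86 and 6.10 in Caco-2 and was 6.31-fold (95% confidence interval 5.14 to 7.74) higher. CXCL8 (interleukin 8), a neutrophil chemokine, was 4.39-fold (3.64 to 5.30) higher, its relative CXCL3 3.51-fold (2.84 to 4.33), CCL20, a ligand of CCR6 made by epithelium, 3.84-fold (2.80 to 5.28), and CCL3 2.49-fold (2.17 to 2.86). The CXCL8 probe set may cross-hybridise, and the other CXCL8 probe set, not of that type, was at 2.16 ± 0.11. CXCL14 was lower at -2.24 ± 0.16. CCL11 (0.00 ± 0.04), CCL22 (0.01 ± 0.10) and CCL27 (0.01 ± 0.06) did not pass. Without Caco-2 replicate 1 the counts were 14 and 4, and under ribosomal centring 34 and 4, when genes with near-zero differences were also called. Of 16 chemokine receptor genes 1 was higher and 1 lower, 14 and 0 under ribosomal centring. For these receptors, leaving out 1 array gave 2 higher without Caco-2 replicate 1 and 0 lower without T84 replicates 1 or 2 and 2 lower without Caco-2 replicate 2. CCR9, the receptor of the gut-homing chemokine CCL25, was higher at 0.57 ± 0.07, and the CCR10 call (-0.42 ± 0.10) was lost without T84 replicates 1 or 2 (adjusted p 0.0725 to 0.0791).

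Cytokine receptor genes had 7 of 25 higher and 1 lower. IL2RG, the common gamma chain of several interleukin receptors, gave 9.75, 10.04 and 9.83 in T84 and 7.69, 7.84 and 7.69 in Caco-2 and was 4.39-fold (95% confidence interval 3.76 to 5.13) higher in T84. IL4R, the interleukin 4 receptor chain, was 2.48-fold (2.21 to 2.79) higher and IFNGR2, a chain of the interferon gamma receptor, 1.38-fold (1.22 to 1.55). IFNAR2, a chain of the type I interferon receptor, was at 0.71 ± 0.08 on 1 of 2 probe sets. CSF2RA was lower at -1.52 ± 0.07, on a cross-hybridising type of probe set. The other CSF2RA probe sets were at -1.81 ± 0.08 and -1.64 ± 0.10. IL6ST (-0.01 ± 0.05), IL7R (-0.02 ± 0.05), IL3RA (0.01 ± 0.06) and IL17RA (-0.01 ± 0.12) did not pass. Of 25 interleukin and TNF family ligand genes 5 were higher and 1 lower, among them LIF, a cytokine of the interleukin 6 family, 3.64-fold (3.08 to 4.32) higher, IL1A at 0.37 ± 0.06 and IL9 at -1.33 ± 0.09. Under ribosomal centring 21 and 1 receptor genes and 24 and 1 ligand genes were higher and lower. For the ligand list, leaving out 1 array gave 2 higher without T84 replicate 1 and 3 higher without T84 replicate 3 or Caco-2 replicates 2 or 3.

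N-glycan genes followed. Of 20 genes that build the lipid-linked precursor or transfer it, 2 were higher and 8 lower in T84 (median -0.08), and 8 and 5 under ribosomal centring. With 1 array left out the list had 1 higher without T84 replicates 1 or 2 or Caco-2 replicates 1, 2 or 3. ALG8, which adds the second glucose, gave 10.54, 10.64 and 10.79 in T84 and 12.19, 12.01 and 11.999 in Caco-2 and was 2.66-fold (95% confidence interval 2.30 to 3.08) lower. DPAGT1, which starts the precursor, was at -0.86 ± 0.10, RPN2, a subunit of the transferase, at -0.83 ± 0.05, DPM1, of dolichol phosphate mannose synthase, at -0.62 ± 0.13, ALG5 at -0.47 ± 0.05 and ALG6 at -0.40 ± 0.05. ALG10, which adds the last glucose, ran the other way at 1.09 ± 0.06, with signals of 7.02, 7.16 and 7.12 in T84 and 5.98, 6.08 and 5.98 in Caco-2. ALG3 (-0.05 ± 0.12), ALG14 (-0.01 ± 0.10), DDOST (0.02 ± 0.07) and DAD1 (0.04 ± 0.11) did not pass.

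Of 15 trimming and branching genes none were higher and 3 lower with all 6 arrays, 2 and 6 without both deviating arrays, and 7 and 1 under ribosomal centring. The list had 1 higher without T84 replicate 3 or Caco-2 replicate 1 and 1 lower without T84 replicates 1 or 2 and 6 lower without Caco-2 replicate 1. MAN1A1, a Golgi mannosidase that trims high-mannose glycans, gave 5.30, 5.30 and 5.39 in T84 and 7.42, 8.79 and 8.56 in Caco-2 and was 7.60-fold (95% confidence interval 4.17 to 13.8) lower. MGAT3, which adds the bisecting GlcNAc, was at -0.56 ± 0.13, lost without T84 replicates 1 or 2 (adjusted p 0.0531 to 0.0649), and MGAT1, which opens the way to complex glycans, at -0.41 ± 0.11, lost without T84 replicates 1, 2 or 3 or Caco-2 replicate 2 (adjusted p 0.0652 to 0.0917). MGAT5 (0.09 ± 0.05), MGAT4B (-0.02 ± 0.08), MGAT5B (-0.08 ± 0.05) and MAN1C1 (0.09 ± 0.07) did not pass.

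Of 20 genes of lactosamine chains 4 were higher and 4 lower, 10 and 3 under ribosomal centring. The counts moved to 2 higher without T84 replicates 2 or 3 or Caco-2 replicate 2. B4GAT1, which primes the matriglycan of dystroglycan, was lower at -1.38 ± 0.14, B4GALNT4 at -1.03 ± 0.12 and B3GNT9 at -0.57 ± 0.09, and B3GALT4, a ganglioside galactosyltransferase gene, was higher at 0.55 ± 0.13, lost without T84 replicates 2 or 3 or Caco-2 replicate 2 (adjusted p 0.0622 to 0.067). B4GALT2 (0.09 ± 0.08), B4GALT3 (-0.08 ± 0.12), B3GNT7 (-0.02 ± 0.08) and B3GALT1 (0.03 ± 0.04) did not pass. In glycolipid synthesis 2 of 19 were higher and 7 lower, 7 and 6 under ribosomal centring. For glycolipid genes, leaving out 1 array gave 1 higher without T84 replicates 2 or 3 or Caco-2 replicate 2. GAL3ST1, which makes sulfatide, was 1.97-fold (1.49 to 2.60) lower in T84, and UGCG, which starts the glucosylceramide series, was at -0.05 ± 0.16.

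Related sulfation enzymes differed in opposite directions. CHST3 and CHST7 both sulfate position 6 of GalNAc in chondroitin. CHST3 gave 6.02, 6.24 and 6.40 in T84 and 9.56, 9.35 and 9.04 in Caco-2, 8.51-fold (95% confidence interval 6.51 to 11.1) lower in T84. CHST7 gave 9.39, 9.46 and 9.50 in T84 and 6.80, 6.46 and 6.37 in Caco-2, 7.48-fold (6.11 to 9.16) higher. The 2 enzymes of 1 reaction thus lay at opposite ends, each without overlap. CHST13 and CHST11, which sulfate position 4, were lower at -2.78 ± 0.23 and -0.58 ± 0.09, CHST15 at -0.79 ± 0.16, while the polymerising enzyme gene CHSY1 was higher at 0.70 ± 0.09. In this list 2 of 17 were higher and 5 lower, 9 and 4 under ribosomal centring.

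Of 30 heparan sulfate genes 5 were higher and 4 lower in T84, 7 and 6 without Caco-2 replicate 1. Leaving out 1 array gave 3 higher without T84 replicate 2. EXT1, of the chain polymerase, gave 10.19, 9.98 and 10.18 in T84 and 8.69, 8.50 and 8.42 in Caco-2 and was 2.98-fold (95% confidence interval 2.54 to 3.50) higher, HS3ST1, the 3-O-sulfotransferase of anticoagulant chains, 1.91-fold (1.59 to 2.29), and the heparanase gene HPSE 1.89-fold (1.50 to 2.38). NDST1, which begins sulfation, was lower at -0.81 ± 0.11, XYLT2, which starts the linkage, at -1.02 ± 0.12 and the extracellular sulfatase gene SULF2 at -1.09 ± 0.09. HS3ST4 (-0.03 ± 0.08), NDST4 (-0.01 ± 0.06), EXTL1 (0.00 ± 0.05) and B3GALT6 (-0.03 ± 0.14) did not pass. Under ribosomal centring 18 and 4 were higher and lower.

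The sulfate donor PAPS is made by PAPSS1 and PAPSS2. PAPSS2 gave 9.90, 9.90 and 9.86 in T84 and 7.84, 8.31 and 8.28 in Caco-2, 3.34-fold (95% confidence interval 2.67 to 4.17) higher in T84, and PAPSS1 gave 9.28, 9.28 and 9.42 in T84 and 10.26, 10.31 and 10.22 in Caco-2, 1.92-fold (1.73 to 2.12) lower. The isoforms were again on opposite sides. TPST1 and TPST2, which sulfate tyrosine, were both lower, at -0.67 ± 0.07 and -1.69 ± 0.15, and GAL3ST4, which sulfates galactose on O-glycans, higher at 1.21 ± 0.11. CHST2 (-0.01 ± 0.07), CHST4 (0.01 ± 0.10), GAL3ST2 (0.00 ± 0.07) and GAL3ST3 (0.01 ± 0.07) did not pass. This list had 2 of 18 higher and 6 lower, 12 and 4 under ribosomal centring.

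Proteoglycan core proteins leaned to Caco-2, with 3 of 27 higher and 10 lower in T84, 14 and 7 under ribosomal centring. Among glypicans, which hold heparan sulfate at the membrane by a lipid anchor, GPC3, an oncofetal member, gave 6.90, 6.81 and 7.07 in T84 and 11.98, 11.94 and 11.75 in Caco-2 (-4.96 ± 0.10). GPC4 gave 8.48, 8.48 and 8.61 in T84 and 4.73, 5.01 and 4.61 in Caco-2 (3.74 ± 0.11). GPC3 was the high glypican signal of Caco-2 against T84 and GPC4 that of T84 against Caco-2. GPC5 and GPC1 were lower at -2.27 ± 0.35 and -1.18 ± 0.13, and GPC6 did not pass (-0.01 ± 0.05). Of the syndecans, which span the membrane, SDC4 was lower at -1.23 ± 0.10 and SDC2 at -0.99 ± 0.13. FMOD (fibromodulin), a collagen-binding matrix proteoglycan, was 9.28-fold (95% confidence interval 7.13 to 12.1) lower, and TGFBR3 (betaglycan), a co-receptor of TGF-beta, 5.04-fold (2.47 to 10.3) lower. CSPG4 (-0.03 ± 0.05), OGN (-0.02 ± 0.04) and DCN (0.02 ± 0.06) did not pass.

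Degradation enzymes leaned to Caco-2, with 12 of 30 lower and 5 higher in T84 (median -0.18), but 11 and 11 higher and lower under ribosomal centring. GALNS, a sulfatase of keratan sulfate, gave 8.15, 8.26 and 8.28 in T84 and 9.95, 9.52 and 9.47 in Caco-2 and was 2.67-fold (95% confidence interval 2.12 to 3.36) lower. ARSB, a sulfatase of dermatan sulfate, was lower at -1.38 ± 0.11; the other ARSB probe sets were at -0.54 ± 0.11 and -0.04 ± 0.06. IDS, which starts the degradation of heparan and dermatan sulfate, was among the 5 higher genes. It gave 9.28, 9.44 and 9.40 in T84 and 7.55, 7.31 and 7.40 in Caco-2 and was 3.88-fold (3.38 to 4.45) higher. IDUA, which acts next, was higher at 0.81 ± 0.06 and GUSB at 0.68 ± 0.11. LCT (lactase), the brush border enzyme of enterocytes, gave 5.37, 5.28 and 5.52 in T84 and 8.21, 7.04 and 7.19 in Caco-2 and was 4.25-fold (2.51 to 7.19) lower. STS, the steroid sulfatase, was 8.21-fold (4.14 to 16.3) lower, and ARSD, a relative encoded near it on the X chromosome, 4.16-fold (3.15 to 5.49) higher on 1 of 2 probe sets. HEXA (0.02 ± 0.10), NAGLU (0.00 ± 0.12) and SGSH (0.02 ± 0.09) did not pass.

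Sugar supply genes had 5 of 32 higher and 11 lower, 9 and 6 under ribosomal centring. With 1 array left out the list had 3 higher without Caco-2 replicates 2 or 3. The orphan transporter gene SLC35D3 gave 7.23, 7.46 and 7.39 in T84 and 5.34, 5.25 and 5.14 in Caco-2 and was 4.33-fold (95% confidence interval 3.76 to 4.99) higher in T84. SLC35B4, a Golgi carrier of UDP-xylose and UDP-GlcNAc, was 3.91-fold (3.33 to 4.57) lower, SLC35D2 1.95-fold (1.72 to 2.21), the hexokinase gene HK1 2.04-fold (1.68 to 2.47) and the galactose enzyme gene GALT 1.79-fold (1.51 to 2.12). GMPPB, which makes GDP-mannose, was higher at 0.80 ± 0.08. UGDH (-0.05 ± 0.24) and GALK2 (-0.07 ± 0.16) did not pass with all arrays; UGDH passed without Caco-2 replicate 1 (adjusted p 0.0462). UGT1A1, a bilirubin glucuronosyltransferase gene read by a probe set shared with other UGT1A genes, gave 10.64, 10.73 and 10.58 in T84 and 5.86, 5.99 and 5.89 in Caco-2 and was 26.6-fold (95% confidence interval 23.9 to 29.7) higher. Of 6 measured UDP-glucuronosyltransferase genes 1 was higher and 1 lower, 4 and 0 under ribosomal centring. Of the UGT2 genes UGT2B17 was called lower at -0.25 ± 0.06, on a probe set that may cross-hybridise, and its call was lost without T84 replicates 1 or 2 (adjusted p 0.0518 to 0.0582); its other probe set was at 0.10 ± 0.05. The UGT2 genes UGT2B4 (-0.02 ± 0.05), UGT2A1 (0.05 ± 0.08), UGT2B28 (0.12 ± 0.07) and UGT2B10 (-0.13 ± 0.07) did not pass. Among 9 GPI anchor genes 4 were higher and 1 lower, with PIGB at 1.32 ± 0.13 and PIGC at 0.60 ± 0.06. The list had 2 higher without T84 replicates 1 or 2. Without Caco-2 replicate 1 the GPI counts were 6 and 1, and under ribosomal centring 8 and 0.

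**Figure D5:**
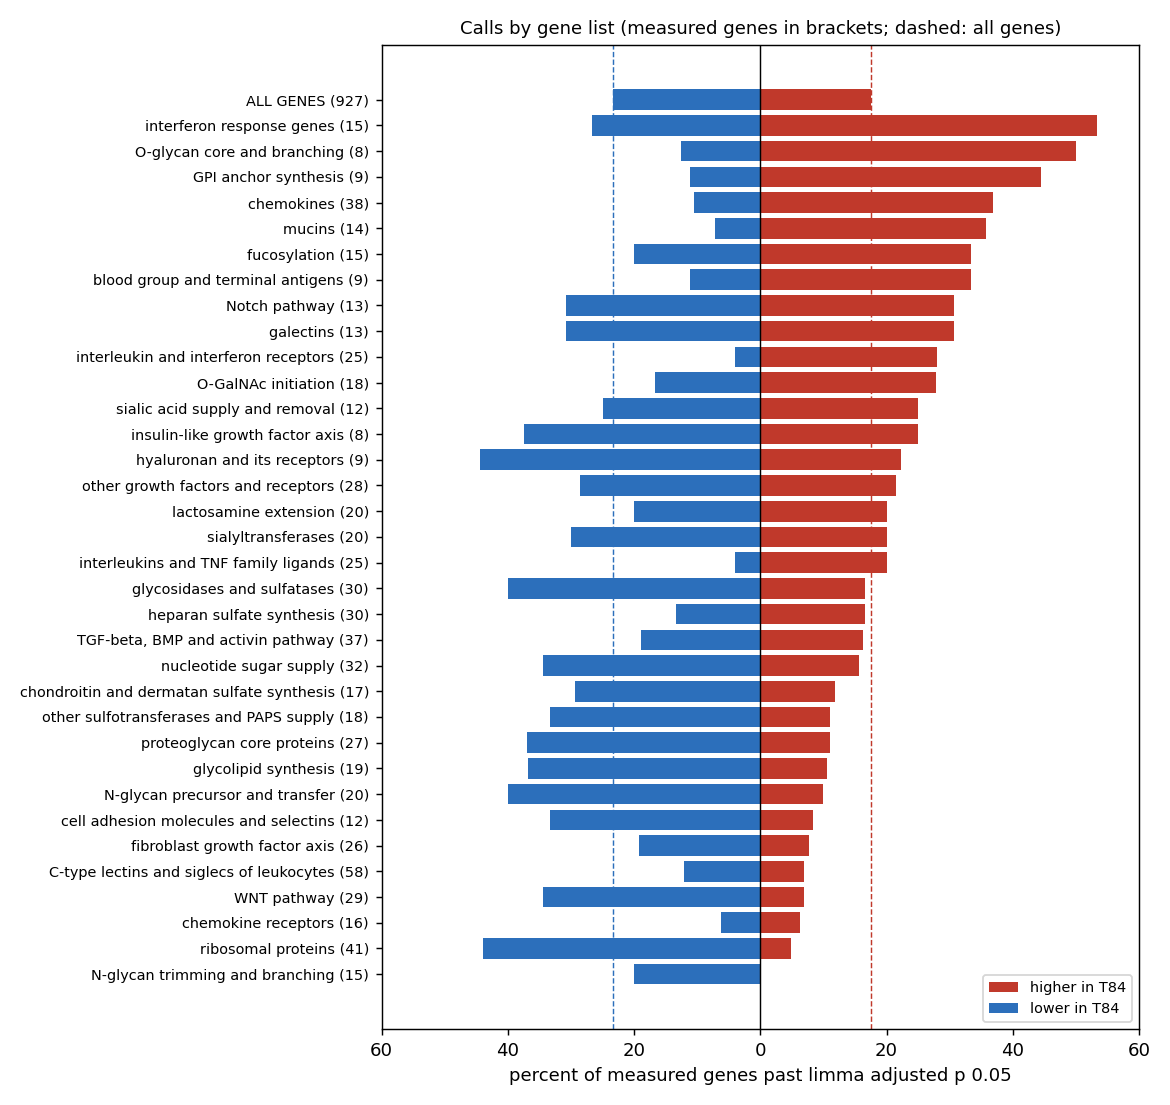
Share of measured genes past the limma threshold that were higher (red, right) or lower (blue, left) in T84, in percent, for lists other than cell type markers with at least 8 measured genes, with dashed lines at 17.5 and 23.3% for all 927 genes. Interferon response and O-glycan core genes have the longest bars to the right, and hyaluronan and ribosomal protein genes the longest to the left among the lists drawn.

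Growth factor genes held the largest difference in favour of Caco-2 among the 927 genes. IGF2, the fetal insulin-like growth factor, gave 7.15, 7.12 and 7.15 in T84 and 13.81, 13.72 and 13.77 in Caco-2, a log2 fold change of -6.62 ± 0.05 (adjusted p = 1.35e-08), with a gap between the lines many times the spread of either. Its binding proteins IGFBP3 and IGFBP2 were also lower, at -3.56 ± 0.10 and -2.43 ± 0.15, whereas IGFBP1, a binding protein of liver, gave 6.64, 7.50 and 6.95 in T84 and 4.73, 4.68 and 4.82 in Caco-2 and was 4.88-fold (95% confidence interval 3.38 to 7.03) higher in T84. IGF2R, which clears IGF2 and carries lysosomal enzymes, was 1.64-fold (1.29 to 2.08) higher. The signalling receptor gene IGF1R was at 0.06 ± 0.08 (95% confidence interval -0.13 to 0.26), IGF1 at 0.05 ± 0.04 and IGFBP5 at -0.02 ± 0.06. Of 8 measured genes 2 were higher and 3 lower, 5 and 3 under ribosomal centring.

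The FGF receptors were all lower in T84. FGFR2 gave 5.60, 5.57 and 5.48 in T84 and 10.36, 10.53 and 10.45 in Caco-2, 29.9-fold (95% confidence interval 26.8 to 33.4) lower, FGFR3 4.24-fold (3.45 to 5.21) and FGFR1 1.55-fold (1.33 to 1.80). FGFR4, outside the rule for named genes, was at -0.63 ± 0.11, so all 4 receptor genes passed in 1 direction. Ribosomal centring left each of them lower, at -4.61 to -0.34 log2 units. Among ligands, FGF19, the ileal hormone that controls bile acid synthesis, was lower at -1.08 ± 0.13, FGF18 higher at 1.06 ± 0.11, and FGF13, an intracellular member that is not secreted, 6.85-fold (95% confidence interval 5.94 to 7.89) higher with signals of 9.85, 10.06 and 9.97 in T84 and 7.26, 7.23 and 7.06 in Caco-2. Of 26 genes 2 were higher and 5 lower. The counts moved to 4 higher without Caco-2 replicate 1. FGF4 (-0.01 ± 0.06), FGF8 (0.01 ± 0.07), FGF9 (0.02 ± 0.05) and FGF10 (0.01 ± 0.05) did not pass, and 21 genes of the list were called higher under ribosomal centring.

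MST1R, the receptor of macrophage-stimulating protein, gave 9.52, 9.84 and 9.73 in T84 and 7.01, 6.88 and 6.91 in Caco-2 and was 6.77-fold (95% confidence interval 5.77 to 7.95) higher in T84. ERBB3, a receptor that pairs with ERBB2, was 2.01-fold (1.66 to 2.43) higher and the EGF receptor ligand gene AREG 2.98-fold (2.10 to 4.24). GDF15, a stress-induced cytokine, was 11.9-fold (9.49 to 14.8) higher. PDGFC, a ligand of the PDGF receptors, was 24.9-fold (20.4 to 30.4) lower, and its receptor gene PDGFRA 3.10-fold (1.92 to 5). PTN (pleiotrophin) and MDK (midkine), heparin-binding growth factors of 1 family, were lower at -4.84 ± 0.30 (on a probe set that may cross-hybridise) and -0.64 ± 0.07. The other PTN probe set, not of that type, was at -4.17 ± 0.34. HGF (0.00 ± 0.07), EGF (-0.02 ± 0.06), BDNF (-0.01 ± 0.04) and VEGFD (-0.03 ± 0.05) did not pass. The list had 6 of 28 higher and 8 lower, 15 and 5 under ribosomal centring. Leaving out 1 array gave 5 lower without T84 replicates 1 or 2.

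Of 29 WNT pathway genes 2 were higher and 10 lower in T84. All 10 lower calls remained in each fit without 1 array, while ribosomal centring gave 17 and 5 higher and lower. The frizzled receptor genes FZD4, FZD10 and FZD7 were lower at -2.95 ± 0.07, -2.18 ± 0.15 and -1.24 ± 0.13; FZD4 gave 6.21, 6.13 and 6.36 in T84 and 9.23, 9.21 and 9.13 in Caco-2. WNT11, a ligand of non-canonical signalling, was lower at -1.49 ± 0.13. WNT10A and WNT3, ligands of canonical signalling, were the 2 higher genes, at 2.45 ± 0.11 and 0.54 ± 0.05, and WNT10A gave 8.79, 8.96 and 8.87 in T84 and 6.67, 6.34 and 6.28 in Caco-2. WNT4 (0.04 ± 0.06), WNT9A (0.04 ± 0.06), WNT7B (-0.04 ± 0.06) and SFRP1 (0.01 ± 0.04) did not pass.

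Notch genes were split, 4 of 13 higher and 4 lower, 8 and 3 under ribosomal centring. NOTCH1 was 1.89-fold (95% confidence interval 1.60 to 2.22) higher in T84 and NOTCH3 3.62-fold (2.77 to 4.72) lower, with NOTCH3 signals of 7.75, 8.04 and 8.04 in T84 and 10.05, 9.83 and 9.51 in Caco-2. The ligand gene JAG1 was higher at 0.70 ± 0.08, and the ligand genes DLL1 and DLL3 lower at -1.79 ± 0.19 and -0.63 ± 0.11. LFNG, the fringe enzyme that lengthens O-fucose on Notch, gave 9.14, 9.69 and 9.53 in T84 and 7.63, 7.29 and 7.73 in Caco-2 and was 3.75-fold (2.78 to 5.07) higher, MFNG was at 0.26 ± 0.06 and RFNG at 0.18 ± 0.14. RFNG did not pass with all 6 arrays but did so without Caco-2 replicate 1 (adjusted p 0.0385). NOTCH2 (-0.11 ± 0.12), JAG2 (0.06 ± 0.10) and DLL4 (0.04 ± 0.09) did not pass. POFUT1, which adds the O-fucose, was at -0.25 ± 0.08, lost without T84 replicates 1, 2 or 3 or Caco-2 replicates 1 or 2 (adjusted p 0.0798 to 0.141) and turned to 0.042 by ribosomal centring.

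In the TGF-beta, BMP and activin list 6 of 37 were higher and 7 lower, 24 and 4 under ribosomal centring and 8 and 8 without Caco-2 replicate 1. BMP7 gave 8.06, 8.06 and 8.05 in T84 and 10.96, 10.62 and 10.63 in Caco-2 and was 6.42-fold (95% confidence interval 5.41 to 7.61) lower in T84. BMP4 was higher at 0.49 ± 0.07. TGFBR2, the TGF-beta receptor gene often damaged in colon cancers with mismatch repair loss, was 2.38-fold (2.06 to 2.74) higher. BMPR1B (0.01 ± 0.07) and TGFB3 (0.01 ± 0.06) did not pass. Of 6 hedgehog genes SMO, the signal transducer, was the 1 that passed with all arrays (3 and 1 higher and lower under ribosomal centring), 3.69-fold (2.64 to 5.15) lower, while PTCH1 (-0.27 ± 0.09), IHH (-0.24 ± 0.18), DHH (0.02 ± 0.04) and SHH (0.11 ± 0.05) did not.

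Hepatocyte-type genes were measured for only 3 of 31 list members, and all 3 were lower in T84. AHSG (fetuin-A), a plasma glycoprotein made by liver, gave 6.98, 6.85 and 6.91 in T84 and 12.05, 11.75 and 11.99 in Caco-2 (-5.02 ± 0.09). ASGR2 and ASGR1, which together form the receptor that clears desialylated glycoproteins, were 12.1-fold (95% confidence interval 10.5 to 14) and 2.67-fold (2.25 to 3.16) lower. The summed linear signal of the 3 was 280 to 304 in T84 and 4401 to 5364 in Caco-2. Of the gut epithelial markers 3 of 19 were measured: LGALS4 and MUC13 were higher in T84 and LCT in Caco-2. Of 10 goblet and secretory markers 4 were measured, and besides ST6GALNAC1 and MUC2, REG4 (-0.46 ± 0.21) and B3GNT6 did not pass. Markers such as EPCAM, CDH17, VIL1 and CDX2 were not analysed here, so the epithelial identity of the lines rests on the labels.

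Markers of other cell types were compared next. Of 9 measured fibroblast and endothelial markers none were higher and 4 lower in T84, PDGFRA, PDGFRB (-0.46 ± 0.07), PECAM1 (-0.62 ± 0.06) and LUM (-0.72 ± 0.20). The LUM call was lost without T84 replicates 1, 2 or 3 or Caco-2 replicate 3 (adjusted p 0.0935 to 0.103). Their summed linear signal was 384 to 412 in T84 and 509 to 544 in Caco-2, and DCN, CD34 (-0.01 ± 0.06), FLT1 (0.04 ± 0.07), EMCN (0.12 ± 0.09) and CLEC14A (0.11 ± 0.06) did not pass. Of 6 measured leukocyte markers 1 was higher and 1 lower, with sums of 365 to 390 and 343 to 394. Under ribosomal centring 5 and 3 of the fibroblast and endothelial and 5 and 0 of the leukocyte markers were higher and lower. These 2 leukocyte calls, CD22 (0.34 ± 0.08) and CSF1R (-0.35 ± 0.10), were lost without T84 replicate 3 or Caco-2 replicates 2 or 3 (adjusted p 0.0576 to 0.0645) and without T84 replicates 1 or 2 or Caco-2 replicate 2 (adjusted p 0.0803 to 0.115). CD2 (0.05 ± 0.06), CD33 (0.08 ± 0.09) and CD48 (0.12 ± 0.05) did not pass. The part of other cells in the results was not tested.

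Lectins known from leukocytes were flat with few exceptions. Of 58 genes 4 were higher and 7 lower, below the shares for all genes, though 43 were called higher under ribosomal centring. With 1 array left out the list had 2 higher without T84 replicate 3 or Caco-2 replicate 3. SIGLEC6, a sialic acid-binding lectin also known from placenta, gave 5.59, 5.60 and 5.76 in T84 and 8.85, 8.53 and 8.34 in Caco-2 and was 7.62-fold (95% confidence interval 6.03 to 9.62) lower in T84. OLR1, the receptor of oxidised LDL, was 6.23-fold (4.22 to 9.19) lower, REG1A, a secreted lectin of gut and pancreas, 2.04-fold (1.63 to 2.55), and PLA2R1 higher at 1.06 ± 0.11 on 1 of 2 probe sets. KLRB1 (0.01 ± 0.05), SFTPD (0.01 ± 0.07), SIGLEC8 (-0.02 ± 0.04) and KLRC3 (-0.01 ± 0.07) did not pass. Among 12 adhesion genes, ICAM2, a ligand of leukocyte integrins, gave 9.01, 8.78 and 9.08 in T84 and 6.11, 6.25 and 6.55 in Caco-2 and was 6.31-fold (95% confidence interval 5.01 to 7.95) higher. It was the only one higher with all arrays, beside 4 lower. The list had 3 higher without Caco-2 replicate 1. Without both deviating arrays 3 and 4 and under ribosomal centring 8 and 2 were higher and lower. NCAM1 was at -0.92 ± 0.15 on 1 of 2 probe sets. SELE (0.04 ± 0.05), SELP (-0.02 ± 0.05) and SELPLG (0.05 ± 0.05) did not pass. CANX (calnexin), the lectin chaperone of new glycoproteins, was 2.48-fold (1.68 to 3.66) lower, while LAMP1 (-0.08 ± 0.10) and LAMP2 (0.00 ± 0.06) did not pass.

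Ribosomal protein genes, which served as the scale in 2 of the alternatives, were not level themselves. Of 41 measured 2 were higher and 18 lower in T84, with a median of -0.16. RPL28 gave 8.03, 8.09 and 8.09 in T84 and 10.61, 10.23 and 10.12 in Caco-2 and RPL32 6.28, 6.50 and 6.48 in T84 and 8.39, 7.86 and 7.94 in Caco-2, differences of -2.25 ± 0.13 and -1.64 ± 0.15, with RPL34 at -1.44 ± 0.09 and RPL27A at -1.33 ± 0.06. RPS13 (-0.01 ± 0.04), RPL27 (-0.02 ± 0.05) and RPS24 (-0.03 ± 0.14) lay near 0. The elongation factor gene EEF1A1 was at -1.83 ± 0.09 and LDHA at -0.02 ± 0.05. Of 93 genes with several probe sets, 70 had the same call on all of them, 22 a call on some only, and 1, SULT1A2, opposite calls, with probe sets at -0.52 ± 0.13, 0.68 ± 0.07 and 1.75 ± 0.06, the first of them lost without T84 replicates 1, 2 or 3 (adjusted p 0.0567 to 0.0811).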

How the data were processed

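RNA from 3 untreated T84 and 3 untreated Caco-2 samples was hybridised to a glycan-related Affymetrix-style array, and the deposited table holds 1 log2 signal per probe set and array. The authors made these log2 values with RMA, which corrects the background and normalizes between arrays, per the submitters' processing notes; the RMA version and the annotation build were not given in the sources used here. Samples were grouped by their titles, and RefSeq identifiers in the probe set names were matched to gene symbols (1043 of 1259 probe sets; GRCh38.p14 table). The 6 arrays were fitted with limma 3.58.1 in R 4.3.3 (lmFit and eBayes, 1 coefficient for the line, 4 residual degrees of freedom), with Benjamini-Hochberg adjustment over all 1259 probe sets. Where a gene had several probe sets, the brightest on average over the 6 arrays stood for it. The fitting script was tested on simulated data.

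The genes named are the 30 largest differences in each direction, in each list up to 6 called members with the lowest adjusted p and up to 4 uncalled members nearest 0, all members of lists with 14 or fewer measured genes, CD44, all sialyltransferases and sialic acid supply genes, and genes with opposite probe set calls. A few genes that the rule names are not reported here. Genes outside it are marked where they appear. The members and the gene lists were chosen with earlier results of these data known. Promoters were matched by symbol for 727 of 927 genes. Alternatives covered centring, quantile normalization, array weights, trend and robust moderation, dim and shared probe sets, a replicate block, thresholds and leaving out arrays.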

Additional observations from a re-analysis of the deposited data

How the results depend on the processing

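The count of higher probe sets moved most with the scaling. The main counts of 209 higher and 276 lower probe sets became 814 and 181 with arrays centred on the mean of their ribosomal protein probe sets, and 504 and 205 with centring on their median, a setting added after seeing the data. Median centring gave 249 and 263, and quantile normalization 260 and 269. Array weights gave 303 and 335. Probe sets without a name suffix for shared or cross-hybridising types (letters a, s or x) numbered 793 and gave 128 and 168 calls. A 2-fold minimum left 87 and 105. Fewer probe sets could be called in both. Leaving out each array in turn gave 171 to 260 higher and 229 to 303 lower, the top of both ranges without Caco-2 replicate 1. Correlations of deviations between same-numbered arrays were -0.638, 0.473 and -0.643. The highest of all pairs was 0.756, for T84 replicate 3 with Caco-2 replicate 1. Deviations from a mean of 3 arrays are tied to each other, so these values cannot decide whether the replicates were paired. Fitted with the replicate number as a block, 171 were higher and 230 lower, and of the 329 genes named 14 lost their call. Among named genes, these changed sign and were called before or after centring on the ribosomal mean, with the log2 values it gave: A4GALT 0.22, ALG14 0.28, B3GNT7 0.27, BDNF 0.28, CD34 0.28, CHST2 0.28, CLC 0.17, CSPG4 0.26, EGF 0.27, EXTL1 0.29, FGF4 0.29, FUT7 0.27, GAL3ST2 0.29, GALNT14 0.27, GPC6 0.29, HS3ST4 0.26, IGFBP5 0.27, IL6ST 0.29, IL7R 0.27, KLRC3 0.28, LAMP2 0.29, LDHA 0.27, MGAT4B 0.27, MGAT5B 0.21, NDST4 0.28, NEU2 0.26, NEU3 0.28, NEU4 0.23, OGN 0.27, POFUT1 0.042, RPL27 0.27, RPS13 0.28, SELP 0.27, SIGLEC8 0.28, ST8SIA2 0.27, ST8SIA5 0.29, UGT2B17 0.045, UGT2B4 0.27, VEGFD 0.27, WNT7B 0.25. Under the same centring, 12 other named genes, MUC17 among them, lost their call and 71 gained one without a change of sign. LDHA became 0.14 with quantile normalization. Averaging the probe sets of a gene turned LAMP2 to 0.31 and SULT1A2 to 0.64. Centring on the ribosomal mean subtracts a single value from each array, so it moved all log2 fold changes by the same amount. The averages include the other probe sets, at 0.62 for LAMP2 and at 0.68 and 1.75 for SULT1A2. Why ribosomal protein signals differed between the lines was not tested, nor was the LDHA shift under quantile normalization. Signal over background could not be judged without detection calls, and 3 arrays per line limit what small differences can be seen.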
